A study of Mus musculus with 120 samples.

Results

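Giant cells form when macrophages fuse around an implanted material, and they share part of their gene program with osteoclasts, the bone-resorbing cells that form by the same kind of fusion. From that shared program, 8 genes were followed in scaffold biopsies: Dcstamp, Ocstamp, Atp6v0d2, Ctsk, Acp5, Nfatc1, Itgb3 and Oscar. The choice was by name, with earlier results of these data known, so shares of members called are descriptions only. All 8 were present in both deposited count tables, among 55487 Ensembl genes that the tables share. The biopsies are immunological niches (INs), microporous polycaprolactone scaffolds placed under the skin of the back of female mice at 4 weeks of age, explanted from 6 weeks of age on and replaced by a new scaffold each time. Bulk RNA was sequenced from 120 INs. NOR/LtJ mice, a related strain that does not develop autoimmune diabetes, gave 23 samples from 5 mice aged 6 to 22 weeks, sampled every 4 weeks. NOD/ShiLtJ mice that stayed normoglycemic (nonprogressors) gave 33 samples at the same ages and 6 samples labelled by days after implantation (31, 38 and 108 days). NOD/ShiLtJ mice that became hyperglycemic (progressors, 10 mice) gave 58 samples at 6 weeks of age, at 7, 5, 3 and 1 weeks before onset (−7 to −1) and at onset. The labels name no treatment and no engineered allele in any group. The INs were sequenced in 2 batches, on different instruments and from different mouse cohorts, except that the −7 samples of progressor mice 1 to 4 were sequenced in batch 2 and their other samples in batch 1. All NOR samples were in batch 1. A 6-week biopsy is also the first scaffold taken from its mouse. Each mouse carried several scaffolds at a time, which were taken out and replaced in rotation. The time a scaffold had spent in the mouse can therefore differ between 6-week and later biopsies. Labels by age or by weeks before onset do not give that time, and its part in the results was not tested. Age, scaffold history and time in the mouse cannot be told apart in comparisons of 6-week with later biopsies.

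In osteoclast formation, the cytokine RANKL (Tnfsf11) acts on the receptor RANK (Tnfrsf11a) of a myeloid precursor. Together with signals from receptors that pair with ITAM adaptors, RANKL switches on the transcription factor NFATc1. NFATc1 drives genes for fusion (Dcstamp, Ocstamp, Atp6v0d2), for attachment (Itgb3), for costimulation (Oscar) and for resorption (Ctsk, Acp5). In the foreign body reaction the same fusion proteins take part in joining macrophages on the surface of an implant. Several members are not exclusive to these cells: Itgb3 is also made by platelets and endothelium, and Ctsk by fibroblasts.

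Total counts ran from 4722396 to 56185434 per sample. A single gene took 85.69% of the counts of NOR mouse 5 at 18 weeks, which left the fewest usable counts (1022488 after scaling). Levels are CPM, the counts of a gene scaled to library size (TMM). Macrophage markers (8 genes, among them Adgre1 and Cd68) summed to between 3475 and 9758 CPM, and each had a count in all 120 samples. Bone-forming cell markers (6 genes, among them Bglap and Sp7) summed to between 0.113 and 8.01 CPM, and each of the 6 had a median under 1 CPM over all 120 samples. In bulk samples, fewer cells of a type and less RNA per cell cannot be told apart.

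The start sites of Oscar and Acp5 are shown because their levels followed each other most closely of all member pairs. RefSeq windows from 250 bases before to 50 bases after a start were at hand for 3 of the 8 members (GRCm38.p6). The 5′ to 3′ strand of each gene is printed, and capitals mark matches, on either strand, to the letters GGAAA (the core bound by NFAT factors), GAGGAA (the core bound by PU.1), TGANTCA (AP-1), and CACGTG or CATGTG (E-boxes). GGAAA and GAGGAA can overlap, and Oscar holds such a pair.
Oscar, chr7:3616108-3616407, minus strand: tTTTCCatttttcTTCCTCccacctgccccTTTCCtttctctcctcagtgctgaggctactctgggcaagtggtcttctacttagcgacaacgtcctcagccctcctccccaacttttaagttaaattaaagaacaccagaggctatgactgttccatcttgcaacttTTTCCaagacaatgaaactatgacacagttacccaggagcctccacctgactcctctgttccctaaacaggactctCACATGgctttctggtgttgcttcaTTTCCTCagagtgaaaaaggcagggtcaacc
Acp5 window 1, chr9:22130549-22130848, minus strand: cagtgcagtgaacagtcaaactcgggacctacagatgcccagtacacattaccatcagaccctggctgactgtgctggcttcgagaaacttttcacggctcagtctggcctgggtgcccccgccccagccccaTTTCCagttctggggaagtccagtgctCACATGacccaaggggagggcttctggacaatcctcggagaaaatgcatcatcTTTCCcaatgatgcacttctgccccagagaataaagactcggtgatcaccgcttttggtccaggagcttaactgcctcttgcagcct
Acp5 window 2, chr9:22131816-22132115, minus strand: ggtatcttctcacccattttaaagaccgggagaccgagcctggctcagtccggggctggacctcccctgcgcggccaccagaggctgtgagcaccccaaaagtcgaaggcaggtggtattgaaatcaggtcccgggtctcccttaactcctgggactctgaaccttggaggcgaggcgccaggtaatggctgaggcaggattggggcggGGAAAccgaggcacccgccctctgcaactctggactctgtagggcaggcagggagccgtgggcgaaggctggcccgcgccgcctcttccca
The Oscar window holds 4 matches to GGAAA, 2 to GAGGAA and 1 to CATGTG. The first Acp5 window holds 2 matches to GGAAA and 1 to CATGTG, and the second holds 1 to GGAAA, as does the third Acp5 window, which is not printed. None of these windows holds TGANTCA. Of 32851 promoter windows of this length, 61.3% hold GGAAA, 28.3% GAGGAA, 14.2% CATGTG, 7.8% TGANTCA and 7.2% CACGTG. A match of these letters describes the sequence and does not show binding.

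Per kilobase of exon, the resorption and proton pump genes were the most abundant. Ctsk, the collagen-degrading cathepsin K, had a median of 261 CPM per kilobase over the 120 samples. Atp6v0d2, a subunit of the vacuolar proton pump that also promotes fusion, followed at 152 CPM per kilobase, and Acp5, the tartrate-resistant acid phosphatase, at 126 CPM per kilobase. The middle of the order held Itgb3 (20.6 CPM per kilobase), the integrin β3 chain of the vitronectin receptor, Dcstamp (15.1 CPM per kilobase), the transmembrane protein required for fusion, and Nfatc1 (13 CPM per kilobase). Ocstamp, a second fusion transmembrane protein, had a median of 1.73 CPM per kilobase. Oscar, a collagen-binding receptor that signals through the adaptor FcRγ, was lowest at 0.947 CPM per kilobase. Some neighbours in this order changed places freely. Itgb3 was above Dcstamp in 83 of 120 samples, Atp6v0d2 above Acp5 in 77, and Dcstamp above Nfatc1 in 62, whereas Acp5 was above Itgb3 in 119 and Nfatc1 above Ocstamp in all 120. Between the lowest and the highest sample, levels spanned 5.55-fold for Nfatc1, 5.73-fold for Atp6v0d2, 13.9-fold for Ctsk and 39.8-fold for Acp5. Ocstamp had no count in the 18-week sample of NOR mouse 5 and Oscar none in the 18-week and 22-week samples of that mouse. A count of 0 allows up to 2.93 CPM in the 18-week sample and 0.133 CPM in the 22-week sample (3 counts, counting error only).

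The genes lie on 8 chromosomes of GRCm38. Dcstamp is on chromosome 15 from 39745930 to 39760938, Ocstamp on chromosome 2 from 165393760 to 165400405, and Atp6v0d2 on chromosome 4 from 19876841 to 19922605. The resorption genes are Ctsk on chromosome 3 from 95499256 to 95509362 and Acp5 on chromosome 9 from 22126727 to 22135711. Nfatc1 is on chromosome 18 from 80606205 to 80713071, Itgb3 on chromosome 11 from 104608000 to 104670476, and Oscar on chromosome 7 from 3609813 to 3616157. All are annotated as protein coding, and the counts cover their exons.

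**Figure D1:**
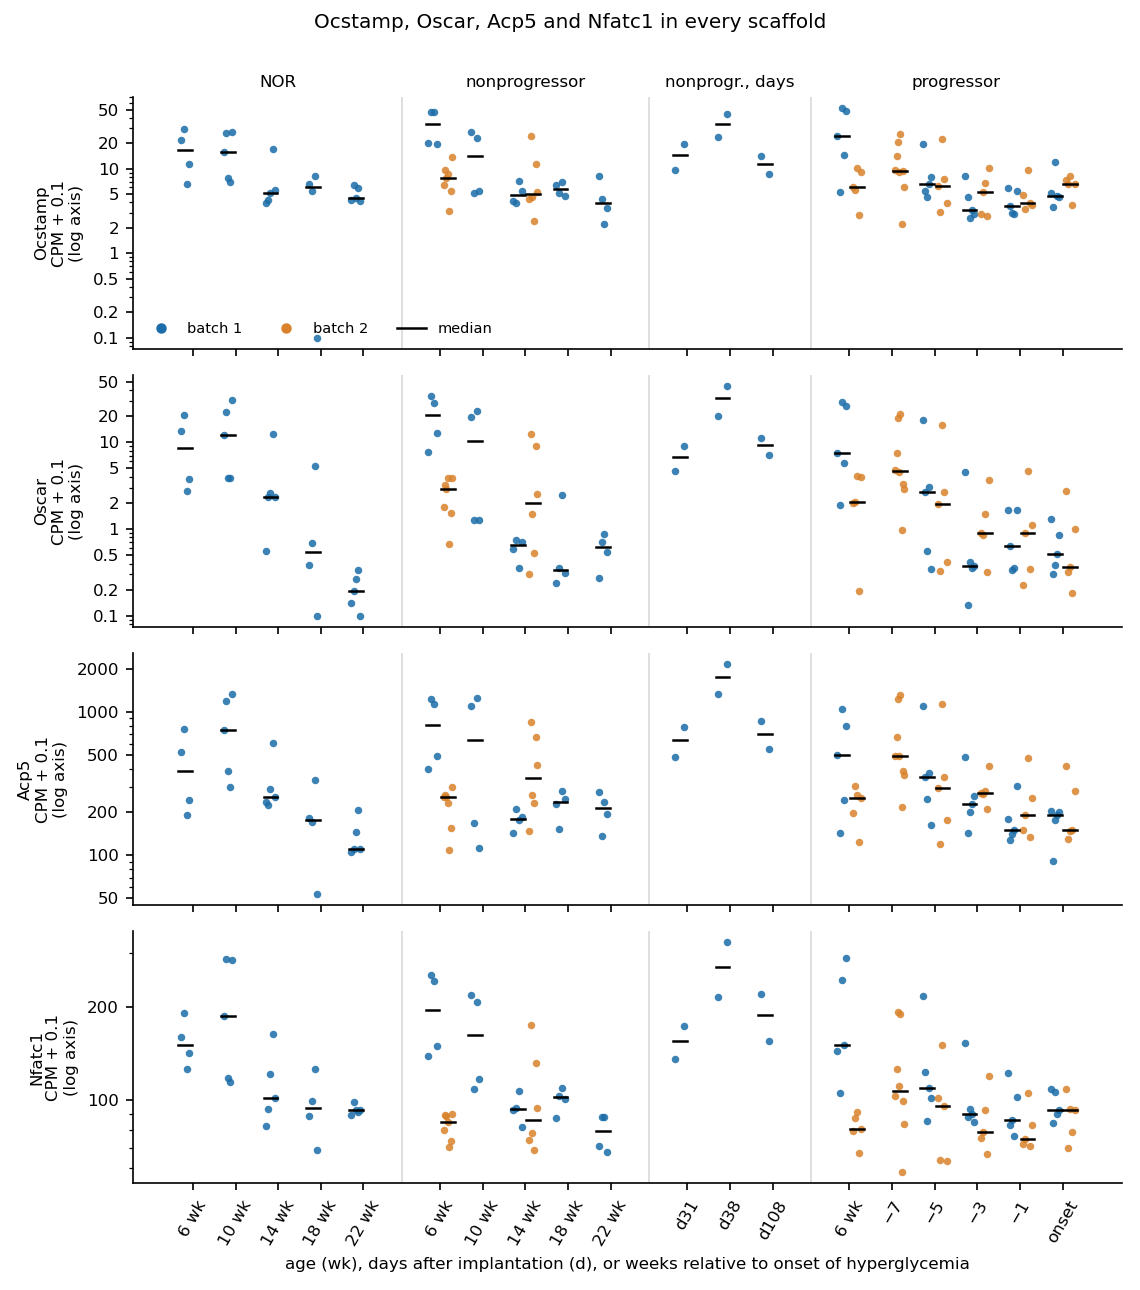
Level of Ocstamp, Oscar, Acp5 and Nfatc1 (CPM + 0.1, log axis) in each of the 120 scaffolds, by group and time, with batch 1 in blue, batch 2 in orange and a black bar at each median. Batch 1 samples at 6 weeks sit high, with an Oscar median of 12.7 CPM over the 9 NOD samples against 0.514 CPM over the 36 later ones.

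At 6 weeks, where both batches hold progressors and nonprogressors, most members were higher in batch 1. In the 4 batch 1 nonprogressors, Oscar measured 7.63, 34.1, 28.5 and 12.7 CPM, and in the 5 batch 1 progressors 7.46, 1.81, 29.1, 5.62 and 25.9 CPM. In the 12 batch 2 samples Oscar ran from 0.0931 to 3.95 CPM with a median of 2.36. All but 1 of the batch 1 samples were therefore above every batch 2 sample. With progression status as a covariate, 6 of 8 members were lower in batch 2 (edgeR's quasi-likelihood test), against a background of 60.8% of all 20090 genes tested. Such background shares, here and in later comparisons, count calls in either direction. With calls this common among all genes, the count of members called does not set them apart. The differences were largest for Oscar (log2 −2.84 ± 0.49 SE, adjusted p = 3.81e-05), Ocstamp (−2.12 ± 0.34, 1.69e-05), Acp5 (−1.58 ± 0.3, 0.000115) and Nfatc1 (−1.24 ± 0.15, 4.55e-07). Itgb3 (−0.65 ± 0.17) and Ctsk (−0.59 ± 0.25) also passed. Atp6v0d2 did not (−0.3 ± 0.14, adjusted p = 0.0668), and Dcstamp differed by −0.003 ± 0.17. Markers of other tissues differed between the same samples: the skeletal muscle markers (4 genes) summed to a median of 3059.6 CPM in batch 1 and 22.0 in batch 2, and the adipocyte markers (3 genes) to 114 and 2.83. Their part in the result was not tested. Instrument and cohort cannot be told apart, and each time course was therefore also read within a batch.

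The first comparison asked whether the fusion program differed between the strain at risk and its control. In batch 1, with the biopsies of each mouse summed, 1 of 8 members differed between 9 NOD and 5 NOR mice, against 8.98% of the 23387 genes tested. Ctsk was 1.59-fold lower in NOD (log2 −0.67 ± 0.16, adjusted p = 0.0161). Its median over NOR samples after 6 weeks was 598 CPM (376 to 1303, n = 19), and over NOD samples after 6 weeks in batch 1 it was 331 CPM (189.8 to 1077, n = 36), so that single biopsies of the strains overlapped. Dcstamp missed the threshold (−0.49 ± 0.15, adjusted p = 0.0503), but passed without nonprogressor mouse 1 or 3 or progressor mouse 5. The other 6 members had differences between −0.17 and 0.15 on the log2 scale with standard errors of 0.1 to 0.53. Ctsk did not pass without NOR mouse 2 (−0.55, adjusted p = 0.0555) or when only 6-week biopsies were compared, and the comparison with nonprogressors alone also called no member. Of the other genes of the pathway, 1 of 16 RANK and CSF1 signalling genes fell in NOD, Csf1r, the receptor for the macrophage growth factor CSF1 (−0.26 ± 0.056, adjusted p = 0.00923). Of 18 fusion and adhesion genes, Sirpa, an inhibitory receptor for CD47 (−0.54 ± 0.073), and Itgax (−0.52 ± 0.11) fell and the hyaluronan receptor Cd44 rose (0.28 ± 0.069). Of 5 epidermis and hair follicle markers, none passed but all 5 had an unadjusted p under 0.05, with a median log2 difference of 4.04, and their part in the result was not tested. None of 18 resorption genes and none of 14 transcription factors passed, with 1 of each at an unadjusted p under 0.05.

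In NOR mice, 5 members changed over the ages sampled, with Oscar lowest at 22 weeks. Oscar measured 13.4, 20.5, 2.61 and 3.67 CPM in the 4 mice at 6 weeks, between 3.78 and 30.4 CPM at 10 weeks and between 0 and 0.241 CPM in the 5 mice at 22 weeks. The ranges at 6 and 22 weeks did not overlap. Acp5 measured between 192 and 755 CPM at 6 weeks, 301 and 1336 CPM at 10 weeks, and 106 and 208 CPM at 22 weeks. Ocstamp, by its median, went from 16.5 to 4.41 CPM between 6 and 22 weeks, with 1 of the 22-week samples at 6.39 against a lowest 6-week value of 6.52. An F test over the 5 ages called 5 of 8 members (Oscar, Acp5, Atp6v0d2, Nfatc1 and Ocstamp, adjusted p from 0.00318 to 0.0392), against 8.24% of 19628 genes. With the mouse as a block it called 3 (Oscar, Acp5 and Atp6v0d2), and without the 18-week sample of mouse 5 it called 6, Dcstamp being added (adjusted p = 0.032). Leaving out all samples of mouse 1, 2 or 5 left 1, 1 and 2 calls. The mean of the 4 later ages against 6 weeks called none, with 2 at an unadjusted p under 0.05, and DESeq2 also called none. That contrast called 0.0357% of all genes. At 22 weeks against 6 weeks, where 1.08% of genes passed, Oscar fell (log2 −6.43 ± 1.16, adjusted p = 0.0072). This fitted value includes a sample at 0 and depends on the prior count. Without the 18-week sample of mouse 5 it was −6.46 ± 1.19 (adjusted p = 0.00842). NOR mouse 4, the lowest for Oscar at 6 and 10 weeks (2.61 and 3.78 CPM), was the highest at 14 weeks (12.3 CPM) and 18 weeks (5.24 CPM). Without it, the contrast over all later ages called Ocstamp (−1.6, adjusted p = 0.0438) and Oscar (−3.62, adjusted p = 0.00529).

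In nonprogressors Oscar and Ocstamp fell after 6 weeks in the fit over both batches. The F test and contrast used 33 samples labelled by age, with batch as a covariate. The log2 change was −2.53 ± 0.7 for Oscar (adjusted p = 0.00884) and −1.4 ± 0.38 for Ocstamp (adjusted p = 0.0079), 2 of 8 members against 24.1% of 21138 genes. That count is near the background share. Oscar and Ocstamp lost their call without nonprogressor mouse 2 (adjusted p = 0.0696 and 0.0665). The F test over the ages called Nfatc1 as well, 3 members against 34.7% of genes, but 1 without mouse 1, 2 or 3 and none without mouse 4. Within batch 1, Oscar had a median of 20.6 CPM at 6 weeks (7.63 to 34.1, n = 4) and 0.608 CPM later (0.136 to 22.9, n = 16), and 14 of the 16 later samples were below all 4 at 6 weeks. The remaining samples were the 10-week INs of mice 1 and 3, at 19.2 and 22.9 CPM. Ocstamp went from a median of 33.3 to 5.22 CPM, with the same count of 14 of 16 below. Within batch 1, 4 of 8 members fell, against 13.8% of genes. They were Oscar (−4.3 ± 0.59, adjusted p = 0.000826), Ocstamp (−2.32 ± 0.34, 0.00129), Nfatc1 (−0.9 ± 0.17, 0.00348) and Acp5 (−1.57 ± 0.41, 0.0188). Acp5 did not pass when any of the 4 mice was left out (adjusted p from 0.0527 to 0.0881). With the mouse as a block all 4 passed. In the same contrast the epidermis markers Krt5 (−5.09 ± 1.14), Krt10 (−4.61 ± 0.99) and Krt14 (−4.56 ± 1.15) fell and Tchh rose (2.03 ± 0.45), 4 of 5 on that list, and 4 of 5 fibroblast markers fell. Their part in the result was not tested.

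In batch 2, where nonprogressors were sampled at 6 and 14 weeks, none of these 4 genes fell. Oscar measured 0.58 to 3.79 CPM in 7 INs at 6 weeks and 0.204, 12.4, 1.37, 0.424, 8.89 and 2.43 CPM in 6 INs at 14 weeks, ranges that overlapped. Oscar was lower at 14 weeks in 3 of 6 mice and Ocstamp in 4 of 6. The change was 0.83 ± 0.75 for Oscar, 0.16 ± 0.48 for Ocstamp, 0.35 ± 0.2 for Nfatc1 and 0.96 ± 0.37 for Acp5 (adjusted p = 0.0571). Instead Dcstamp rose. Its 7 values at 6 weeks lay between 24.2 and 43.5 CPM and its 6 values at 14 weeks were 61.6, 67.6, 58.8, 71.2, 61.9 and 75.5 CPM, all above every 6-week value. The rise was 1.93-fold (0.94 ± 0.1, adjusted p = 0.000118) and held with the mouse as a block (adjusted p = 0.00122). Ctsk rose 1.9-fold (0.93 ± 0.3, adjusted p = 0.0294), but with the block its adjusted p was 0.0574, and it lost its call without mouse 6, 9 or 10. In the same contrast 4 of 4 skeletal muscle and 3 of 3 adipocyte markers rose, their sums going from medians of 8.82 and 3.06 CPM to 2529 and 181 CPM, and their part in the result was not tested. Dcstamp and Ctsk were 2 of 8 members, against 34.1% of 19665 genes. The difference between the batches in the change from 6 to 14 weeks passed for 5 members, against 3.15% of genes. They were Oscar (6.17 ± 1.22), Acp5 (3.15 ± 0.59), Ocstamp (2.88 ± 0.73), Dcstamp (1.53 ± 0.25) and Nfatc1 (1.41 ± 0.32). It passed for none with the mouse as a block (6 at an unadjusted p under 0.05) or without mouse 3, and for 2 or 3 without mouse 1, 4, 6, 9 or 10.

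**Figure D2:**
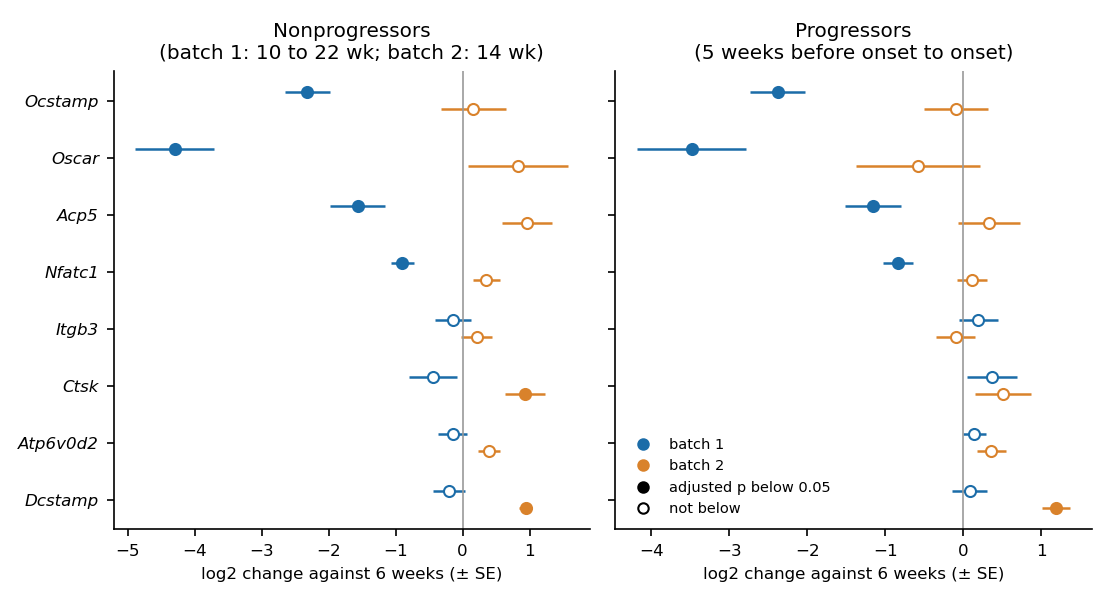
Change after 6 weeks (log2, edgeR, error bars ± SE) of each member in nonprogressors (left) and progressors without the −7 samples (right), fitted within batch 1 (blue) and batch 2 (orange); filled points passed an adjusted p of 0.05. Ocstamp, Oscar, Acp5 and Nfatc1 fell in batch 1 in both groups, and Dcstamp rose in batch 2 in both.

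Progressors were also read within each batch. In batch 1, Oscar had a median of 7.46 CPM at 6 weeks (1.81 to 29.1, n = 5) and 0.44 CPM from −5 to onset (0.0346 to 18.0, n = 20), and 16 of the 20 were below all 5 at 6 weeks. Ocstamp went from a median of 24.1 CPM (5.16 to 51.4) to 4.59 CPM (2.51 to 19.7), with 12 of 20 below. For both genes the median of the later INs was lower than the 6-week IN in 5 of 5 mice. Within batch 1, 4 members fell, against 27.1% of 19596 genes. These were Ocstamp (−2.38 ± 0.35, adjusted p = 0.000224), Oscar (−3.48 ± 0.7, 0.00154), Nfatc1 (−0.84 ± 0.19, 0.0032) and Acp5 (−1.16 ± 0.36, 0.0212). Acp5 did not pass without mouse 3 or 5 (adjusted p = 0.259 and 0.0945), nor Nfatc1 without mouse 5 (0.0644). In the same contrast 5 of 5 fibroblast markers fell and Krt14 rose (3.84 ± 1.36), and their part in the result was not tested. In batch 2, over all later times with −7 included, the estimates for the same 4 genes were −0.11 ± 0.78 (Oscar), 0.095 ± 0.4 (Ocstamp), 0.56 ± 0.4 (Acp5) and 0.2 ± 0.19 (Nfatc1), and none passed. The 5 Oscar values at 6 weeks in batch 2 were 1.91, 1.94, 3.95, 0.0931 and 3.87 CPM, against 0.0855 to 15.5 CPM from −5 to onset, and the ranges overlapped. The Oscar median from −5 to onset was 2.43-fold lower than at 6 weeks in batch 2, and the median of a mouse's later INs was below its 6-week IN in 4 of 5 mice for Oscar and for Ocstamp.

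Dcstamp rose in batch 2 progressors. Its 6-week values were 26.4, 39.0, 33.8, 16 and 31.5 CPM, and its 20 values from −5 to onset had a median of 66.8 CPM (39.1 to 88.2), all 20 above every 6-week value, the closest values being 39.0 and 39.1 CPM. It was the only member called in that batch over all later times with −7 included (2.31-fold, log2 1.21 ± 0.18, adjusted p = 5.96e-06; with the block 0.000164), 1 of 8 against 30.8% of 21377 genes. The −7 samples in that contrast include those of mice 1 to 4 of the other cohort, which have no 6-week sample in batch 2. Markers of other cells rose in the same contrast, with calls for 3 of 3 adipocyte and 4 of 4 T cell markers. The adipocyte sum went from a median of 2.05 CPM at 6 weeks to 61.7 CPM from −5 to onset, and its part in the result was not tested. In batch 1 the Dcstamp medians were 28.1 and 29.7 CPM and the change was 0.079 ± 0.22. The difference between the batches in the change passed for Ocstamp (2.3 ± 0.58, adjusted p = 0.0192), Dcstamp (1.12 ± 0.28, 0.0192) and Nfatc1 (0.96 ± 0.26, 0.0285), against 4.66% of 21708 genes. With the block 3 members also passed. Without mouse 3 or without mouse 9 none did, and without mouse 5 or 6 there was 1. The −7 samples of mice 1 to 4 offer a view across batches, since those mice were otherwise sequenced in batch 1. Their Dcstamp values in batch 2 were 59.0, 79.2, 87.3 and 72.4 CPM, and at −5, in batch 1, the same mice measured 61.0, 32.1, 27.7 and 34.3 CPM. Dcstamp was higher at −7 in 3 of these 4 mice and close in mouse 1. Time and batch cannot be told apart in these 4 mice.

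**Figure D3:**
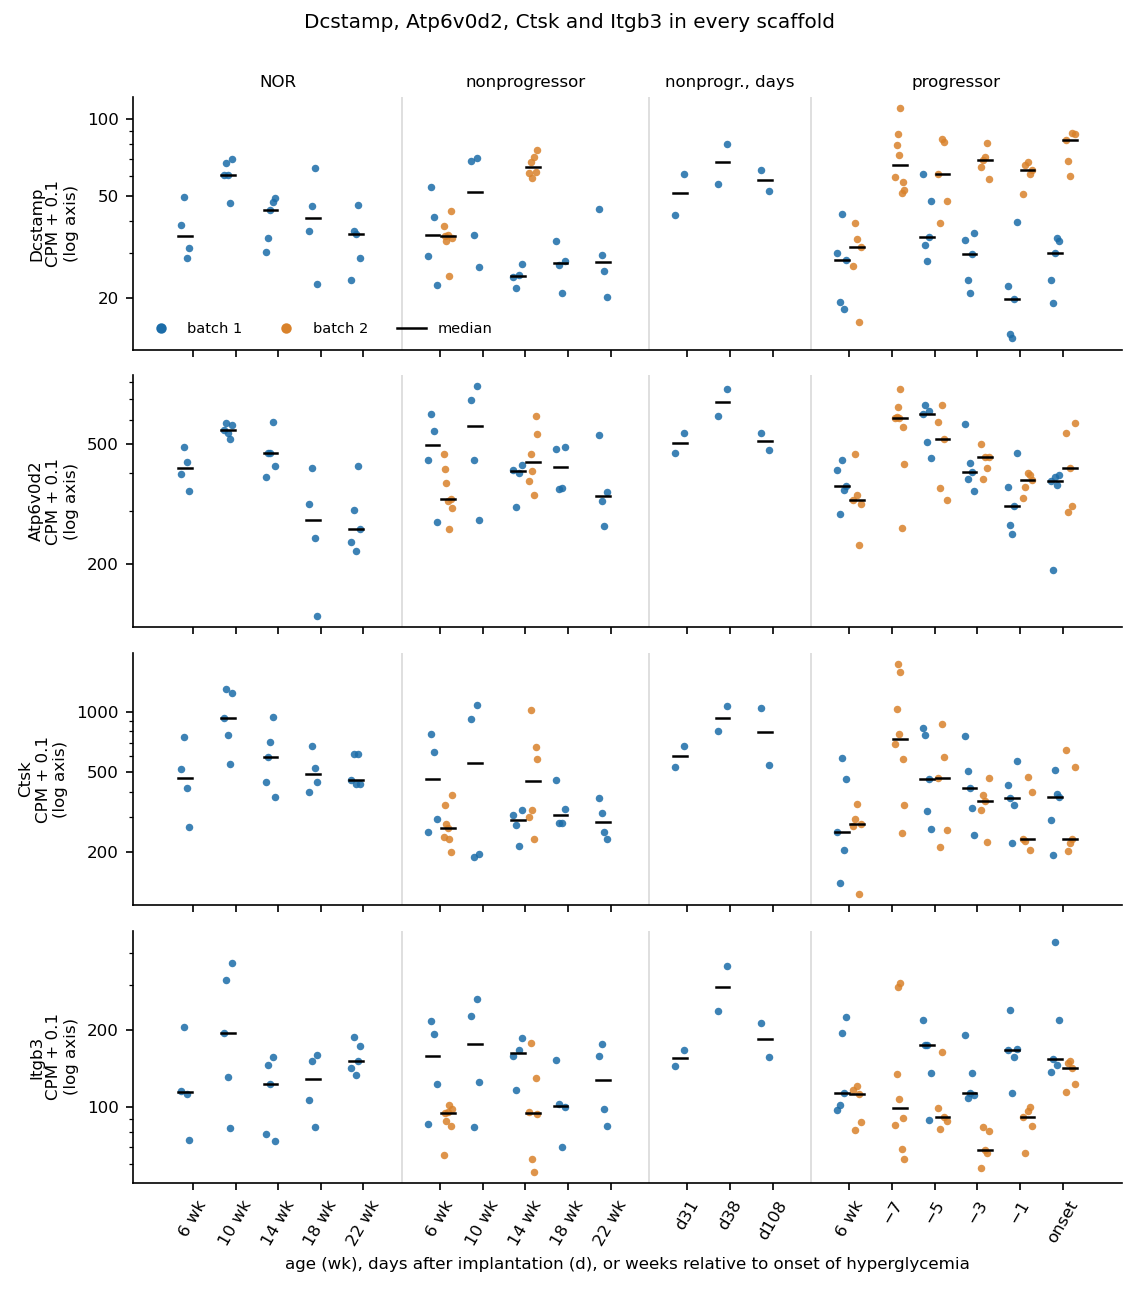
Level of Dcstamp, Atp6v0d2, Ctsk and Itgb3 (CPM + 0.1, log axis) in each of the 120 scaffolds, by group and time, with batch 1 in blue, batch 2 in orange and a black bar at each median. After 6 weeks the batch 2 samples of NOD mice hold a Dcstamp median of 66.7 CPM and those of batch 1 a median of 27.7 CPM (both without −7).

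With both batches in a single fit and batch as a covariate, 5 of 8 members passed in progressors after 6 weeks, against 36.5% of 21279 genes. Ocstamp (−1.27 ± 0.32, adjusted p = 0.00119) and Oscar (−1.9 ± 0.59, 0.00901) fell, and Dcstamp (0.62 ± 0.17, 0.00316), Ctsk (0.68 ± 0.24, 0.0215) and Atp6v0d2 (0.33 ± 0.12, 0.0235) rose. With the mouse as a block Atp6v0d2 had an adjusted p of 0.0689. Leaving out a mouse ended the call of Oscar (mouse 3 or 5), Ctsk (mouse 1, 2 or 4) or Atp6v0d2 (mouse 4, 6, 8 or 9), with adjusted p between 0.0576 and 0.0826. None of the 5 passed in both batches taken alone. The F test over the 6 times called all 8, against 35.6% of genes, and 4 with the block.

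Several members were high in progressors at −7. Ctsk measured between 124 and 346 CPM in the 5 batch 2 progressors at 6 weeks, and 693, 1034, 1726, 779, 1582, 249, 583 and 343 CPM in the 8 INs at −7. Of these 8, 6 were above all 5. Of those 6, 4 came from mice 1 to 4 of the other cohort, and of mice 6, 7, 9 and 10, mice 6 and 9 were above (1582 and 583 CPM). From 6 weeks to −7, 3 members rose, against 12.5% of genes: Ctsk (3.19-fold, log2 1.67 ± 0.33, adjusted p = 0.000549), Atp6v0d2 (0.66 ± 0.16, 0.00508) and Dcstamp (0.76 ± 0.23, 0.021). With the mouse as a block, Ctsk alone passed (1.29 ± 0.39, adjusted p = 0.0489). Acp5 had a median of 494 CPM at −7 (217 to 1312) against 249 CPM (124 to 303) in the batch 2 progressors at 6 weeks and 259 CPM (119 to 1142) from −5 to onset in batch 2. From −7 to the mean of the 4 later times, Ctsk (−1.24 ± 0.25, adjusted p = 0.00421), Acp5 (−1.31 ± 0.31, 0.0124) and Oscar (−2.56 ± 0.62, 0.0138) fell, 3 of 8 against 3.89% of genes. The same 3 fell within batch 2 (adjusted p = 0.0083, 0.0223 and 0.0255), where 6.32% of genes passed. That comparison mixes cohorts, since 4 of the 8 samples at −7 came from mice 1 to 4, which gave no later sample in batch 2. With the block none passed (adjusted p = 0.249, 0.167 and 0.134), 4 members having an unadjusted p under 0.05. Without mouse 3 or 6 there was 1 call and without mouse 8 there were 5. No member passed in any later step between neighbouring times, and those steps called 0.0% or 0.0047% of genes. Progressor mice 1 and 8 stood high at −5, with Acp5 at 1101 and 1142 CPM where the other 8 mice lay between 119 and 376 CPM.

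No member was found to differ between progressors and nonprogressors. At 6 weeks, with 10 and 11 mice and batch as a covariate, no member passed by edgeR or DESeq2 and none had an unadjusted p under 0.05. Differences ranged from −0.32 ± 0.17 (Dcstamp) to 0.086 ± 0.17 (Itgb3). No gene of 20090 passed in that comparison (0.0%), with 999 at an unadjusted p under 0.05. In later biopsies, summed per mouse (10 and 10 mice), no member passed by either tool or at an unadjusted p under 0.05. Batch 2 nonprogressors gave later biopsies at 14 weeks only, and progressors from −5 to onset, so times and numbers of biopsies differed between the groups. Without progressor mouse 1, Oscar (−1.8) and Acp5 (−0.69) had an unadjusted edgeR p of 0.0235 and 0.0482, and without mouse 8 Oscar had 0.0427. None of these passed after adjustment. Oscar had the widest difference (−1.22 ± 0.73), and Dcstamp differed by −0.11 ± 0.12. Of 23833 genes 0.0% passed with edgeR (2238 at an unadjusted p under 0.05), and 131 genes passed with DESeq2. No member passed for a difference in the change after 6 weeks between nonprogressors and NOR mice (0.0% of 20647 genes, Oscar −1.88 ± 1.06, adjusted p = 0.822). Nor did any pass, in batch 1, between progressors and nonprogressors (0.0% of 20687 genes, Oscar 0.8 ± 1.12, adjusted p = 0.899). No member had an unadjusted p under 0.05 in either, and DESeq2 called none. With standard errors near 1, these tests leave wide intervals for Oscar. Ocstamp (−1.15 ± 0.59), Ctsk (−0.79 ± 0.45) and Nfatc1 (−0.51 ± 0.28) also had lower estimates in nonprogressors than in NOR mice. Of the members, only Atp6v0d2 did not (0.0068 ± 0.29). With the mouse as a block, Ocstamp had an unadjusted p of 0.0351 (edgeR, adjusted p = 0.823). The lack of a call therefore does not show that the changes were equal.

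Other genes of the pathway had calls in both directions, in fits that called 24.1% of all genes in nonprogressors and 36.5% in progressors. RANKL itself (Tnfsf11) fell with Oscar and Ocstamp, in the fit over both batches by 0.89 ± 0.31 in nonprogressors (adjusted p = 0.0385) and by 1.05 ± 0.29 in progressors (0.00303). Within batch 1 it fell in both groups (−1.64 ± 0.26 and −1.56 ± 0.38), and within batch 2 it did not pass in either (0.13 ± 0.41 and −0.66 ± 0.41). Its receptor Tnfrsf11a did not pass (0.11 ± 0.12 and 0.097 ± 0.1), nor did the macrophage growth factor Csf1 (−0.23 ± 0.11 and −0.14 ± 0.1), although Csf1 fell within batch 1 progressors (−0.37 ± 0.13). Of 16 RANK and CSF1 signalling genes 3 rose and 1 fell in each group, a share near the background in nonprogressors and below it in progressors. Those that rose included Trem2, an ITAM-coupled lipid receptor (0.57 ± 0.1 and 0.61 ± 0.099), and the adaptor Fcer1g through which Oscar signals (0.39 ± 0.1 and 0.4 ± 0.13). Within batch 2 Fcer1g did not pass (0.14 ± 0.12 and 0.26 ± 0.22). Of 14 transcription factors, 5 rose and none fell in nonprogressors, among them Mitf (0.37 ± 0.086), and 4 rose and 2 fell in progressors. Of 18 fusion and adhesion genes, 4 rose and 4 fell in nonprogressors, with Mfge8 rising (1.07 ± 0.19) and the metalloprotease Adam12 falling (−1.07 ± 0.18), and 9 rose and 4 fell in progressors. Of 18 resorption genes, 3 rose and 5 fell in nonprogressors and 9 rose and 4 fell in progressors. Median changes over the lists lay between 0.03 and 0.24, and over all genes they were −0.032 and 0.013. Fibroblast markers moved too: all 5 fell in both groups, and their sum in NOD mice went from a median of 38383 CPM at 6 weeks to 18975 CPM later in batch 1 and from 40917 to 14303 CPM in batch 2. Macrophage markers (8 genes) had no call in either group in this fit, while 2 rose in batch 1 and 2 fell in batch 2 among nonprogressors taken alone. The part of these shifts in the results was not tested.

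Within the resorption list, Mmp9, Calcr, Car2 and the membrane metalloprotease Mmp14 fell in both groups, and Slc9b2 in nonprogressors, in the fit over both batches. Mmp9, a gelatinase that osteoclasts make, fell by 1.78 ± 0.61 in nonprogressors and by 1.82 ± 0.53 in progressors. Calcr, the calcitonin receptor, fell by 2.84 ± 0.7 and by 1.96 ± 0.54, and Car2, the carbonic anhydrase that supplies protons to the pump, by 0.71 ± 0.25 and by 0.61 ± 0.2. By contrast, Atp6v0d1, the widely expressed counterpart of Atp6v0d2, had changes of −0.0052 ± 0.07 and 0.04 ± 0.078, and Clcn7 of 0.12 ± 0.16 and 0.26 ± 0.13, none of which passed. Clcn7 did rise within batch 2 (0.5 ± 0.15 and 0.52 ± 0.18). Within batch 2 none of the 5 genes that fell passed in either group. Car2 was at −0.056 ± 0.27 and −0.24 ± 0.25 there, Mmp14 at −0.26 ± 0.17 and −0.4 ± 0.16, and Slc9b2 at 0.98 ± 0.51 and 0.39 ± 0.56. All 5 fell within batch 1 in both groups, where Mmp9 fell by 3.47 ± 0.55 in nonprogressors and by 3.29 ± 0.62 in progressors, and Calcr by 4.47 ± 0.63 and by 3.6 ± 0.67. In batch 2 the changes of Mmp9 were 0.87 ± 0.69 and 0.14 ± 0.66 and those of Calcr 0.023 ± 0.7 and −0.58 ± 0.74, and none passed. Trem2 rose in both batches of both groups (0.48 to 0.71).

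**Figure D4:**
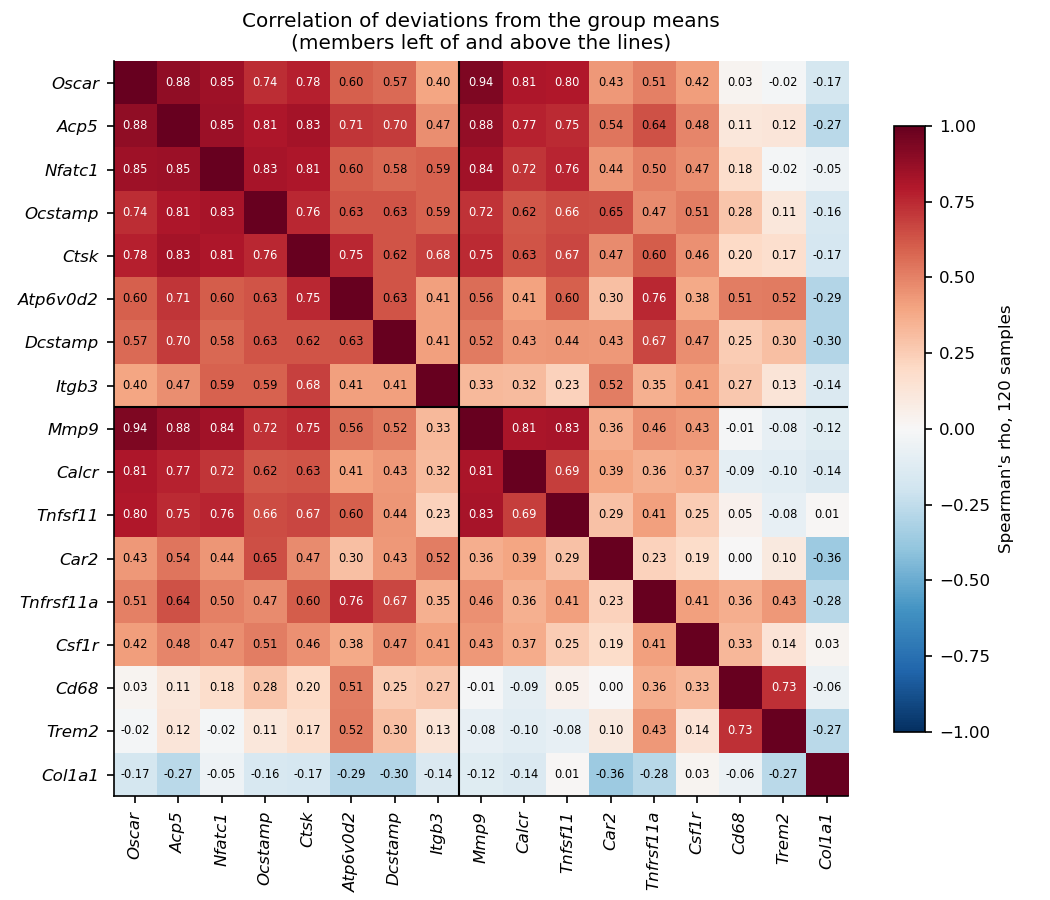
Spearman correlation, over 120 samples, of deviations from the mean of each group, time and batch for the 8 members (above and left of the black lines) and 9 other genes of the pathway or of neighbouring cell types. Among the members, Oscar, Acp5 and Nfatc1 have the highest values (0.85 to 0.883), Mmp9 with Oscar reaches 0.936, and Trem2, Cd68 and Col1a1 stay pale against Oscar (between −0.175 and 0.028).

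Between scaffolds of the same group, time and batch, the members varied together to unequal degrees. Over the 120 samples, deviations of log2 CPM from the group means had a Spearman correlation of 0.883 between Acp5 and Oscar, whose start sites are printed above, of 0.853 between Acp5 and Nfatc1 and of 0.85 between Oscar and Nfatc1. The lowest member pair was Itgb3 with Oscar at 0.398. The points share library, depth and cell make-up, so these are descriptions only. Among genes outside the list, Mmp9 followed Oscar at 0.936, and Trem2 at −0.022. Of 23909 genes, those whose deviations were most like the mean of the 8 members were Slc9b2 (0.934), Prss50 (0.91), Snx10 (0.892), Dock5 (0.885), Rufy4 (0.881), Myo1d (0.877), Clcn7 (0.876), Mmp9 (0.867), Arsb (0.859) and Slc37a2 (0.857).

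**Figure D5:**
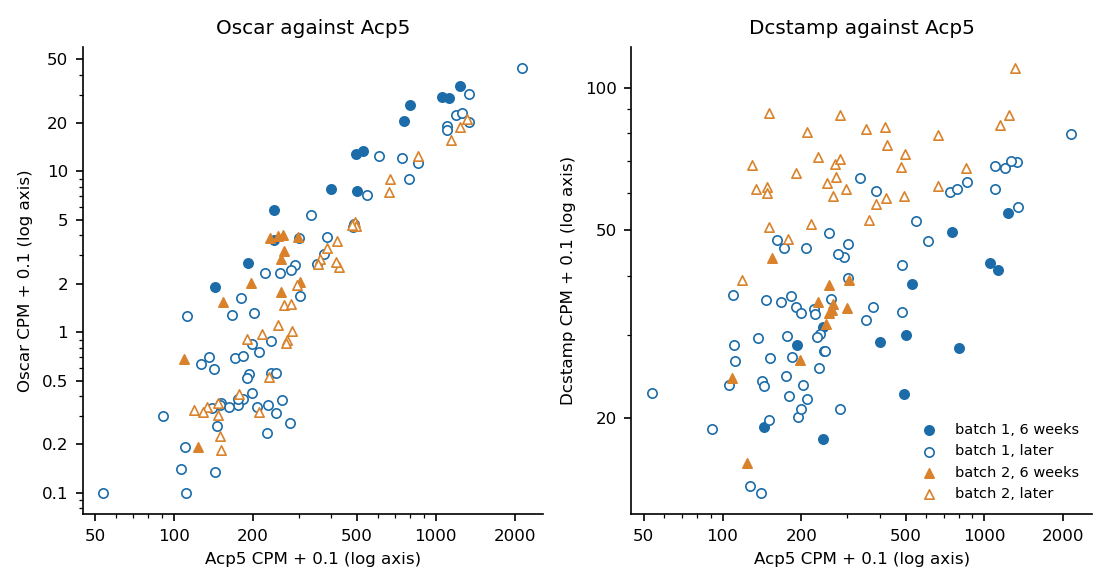
Oscar (left) and Dcstamp (right) against Acp5 in the 120 scaffolds, all as CPM + 0.1 on log axes, with batch 1 as circles, batch 2 as triangles, 6-week samples filled and later ones open. Oscar tracks Acp5 in both batches, whereas Dcstamp in later batch 2 samples lies higher than in the others at the same Acp5 level.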

How the data were processed

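Total RNA of 120 scaffolds was sequenced after ribosomal RNA depletion. The deposited tables (1 per batch) hold estimated counts per gene, which the authors made with RSEM on GRCm38 and deposited as whole numbers; cutadapt, FastQC, STAR and MultiQC are also named in the submitters' processing notes, without versions. The tables share 55487 Ensembl genes. Totals ran from 4722396 to 56185434 in batch 1 and from 29029239 to 43880986 in batch 2. Groups, ages, mice and batches came from the labels. Gene positions and exon lengths were read from GENCODE M21.

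Levels (CPM) are counts scaled by TMM library sizes. Comparisons used edgeR 4.0.16 (R 4.3.3) quasi-likelihood tests after filterByExpr, with Benjamini-Hochberg adjustment over all genes tested and a threshold of 0.05. SE is the absolute log2 change divided by the square root of F. Main fits that compared times took each biopsy as a sample, so repeated biopsies of a mouse were treated as independent. Alternatives were DESeq2 1.42.0, RLE scaling, no filter, the mouse as a block, single batches and each mouse left out. The within-batch fits with their tests, and the tests of differences between batches, were chosen after seeing the data. Simplified fits of later against 6-week biopsies, in progressors and in batch 1 nonprogressors, were run on simulated data with independent libraries. They do not cover repeated biopsies of a mouse or the other comparisons. The text names the 8 members, anchor genes of the pathway lists, up to 3 genes per list and direction with the smallest p among those that passed, and the 10 genes most like the members' mean by Spearman correlation. Where 5 or fewer genes of a list fell, those outside this rule were named after their values were seen. The members and lists were chosen with earlier results of these data known. Numbers pair samples because the labels name the same mouse (mean correlation of same-mouse deviations between −0.00366 and 0.00784 over 2000 genes). The floors given for a count of 0 cover counting error only. The 6 samples labelled by days after implantation entered no comparison. The values of a gene on the pathway lists are not reported here, although it is counted in its list.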

Additional observations from a re-analysis of the deposited data

Results flagged for a closer look

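Of 184 checks of a member within a group, 21 had a sample set apart from the others by its gap relative to the range of the group. Chance alone gives about 1 in 20 where values are normally distributed. CPM values are often skewed upward, and most flags are a highest value, so the 21 do not show an excess of odd samples. The checks are not independent, since members vary together and several flags fall on the same biopsy. NOR mouse 4 at 14 weeks was highest for Ocstamp (16.9 CPM, next 5.45), Acp5 (608 CPM, next 290.2) and Oscar (12.3 CPM, next 2.53), and at 18 weeks for Oscar (5.24 CPM, next 0.589). Nonprogressor mouse 3 at 18 weeks was highest for Oscar (2.34 CPM, next 0.26). Progressor mouse 1 in batch 1 was highest at −5 for Ocstamp (19.7 CPM, next 7.95), Acp5 (1101 CPM, next 376), Nfatc1 (217 CPM, next 123) and Oscar (18.0 CPM, next 2.96), and at −3 for Nfatc1 (153 CPM, next 93.4) and Oscar (4.44 CPM, next 0.318). Progressor mouse 8 in batch 2 was highest at −5 for Ocstamp (22.3 CPM, next 7.48), Acp5 (1142 CPM, next 354), Itgb3 (164 CPM, next 99.1) and Oscar (15.5 CPM, next 2.56), and at −1 for Ocstamp (9.63 CPM, next 4.79) and Oscar (4.53 CPM, next 1.01). At onset in batch 1, mouse 3 was highest for Ocstamp (12 CPM, next 4.99) and Itgb3 (442 CPM, next 219.9), and mouse 2 was lowest for Atp6v0d2 (191 CPM, next 365) and Acp5 (90.9 CPM, next 176).

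The change after 6 weeks differed between batches for some members by a test of the difference itself, which was chosen after seeing the data. In progressors the log2 difference (batch 2 minus batch 1) was 1.12 for Dcstamp, 2.3 for Ocstamp and 0.96 for Nfatc1. In nonprogressors from 6 to 14 weeks it was 3.15 for Acp5, 1.53 for Dcstamp, 2.88 for Ocstamp, 1.41 for Nfatc1 and 6.17 for Oscar. With the mouse as a block, Dcstamp, Ocstamp and Nfatc1 still passed in progressors, and no member passed in nonprogressors. With single mice left out, the number of calls ranged from 0 to 4 in progressors and from 0 to 6 in nonprogressors.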

How the results depend on the processing

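Among values for single members, 1805 kept direction and side of the threshold under an alternative, 82 lost and 30 gained a call and 27 changed sign; of counts of members called, 252 stayed within 1.5 times and 55 did not. The cause was not tested. For NOD against NOR the count was 2 with DESeq2, with progressors alone and with each biopsy as a sample, and 0 with 6-week biopsies or nonprogressors alone; signs changed for Acp5 (0.62 and 0.22), Oscar (0.74 and 0.36) and, at 6 weeks, Nfatc1 (0.29). In nonprogressors, batch 1 alone gave 4 calls and turned Dcstamp (−0.21), Atp6v0d2 (−0.15) and Ctsk (−0.44), batch 2 alone turned Ocstamp (0.16), Acp5 (0.96), Nfatc1 (0.35), Itgb3 (0.21) and Oscar (0.83), and no batch term turned Itgb3 (0.21). In progressors, batch 2 alone gave 1 call, also with the replicate block, and turned Ocstamp (0.095, block 0.077), Acp5 (0.56, block 0.42) and Nfatc1 (0.2, block 0.15). For progressors against nonprogressors, Nfatc1 turned without a batch term (0.11), and within batch 1 Itgb3 at 6 weeks (−0.093) and Ctsk later (0.014). For nonprogressors in batch 2 DESeq2 gave 4 calls and the mouse block 1, with Ocstamp at −0.007; for progressors in batch 2 DESeq2 gave 2. The F test called 3 members in NOR mice with the mouse block, and in progressors 4 with the block, 5 within batch 1, 4 within batch 2 and 1 with the block within batch 2. Steps between progressor times called 1 with the block, and −5 to onset against −7 called 5 with DESeq2 or without a batch term and 0 with the block, over both batches or within batch 2. The difference between batches in nonprogressors had 0 calls with the block. The block gave 0 calls in the NOR age contrast, 2 in nonprogressors, 4 in progressors and 3 for the difference between batches in progressors.

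Leaving out 1 mouse at a time, counts ranged from 0 to 2 for the strains and for NOR age, 0 to 3 for nonprogressors by contrast and by F test, 3 to 5 for progressors, 1 to 7 for the NOR F test, 1 to 4 for nonprogressors in batch 2, 2 to 4 and 1 to 2 for progressors in batches 1 and 2, 1 to 5 for −5 to onset against −7, and 0 to 4 and 0 to 6 for the differences between batches in progressors and nonprogressors. Oscar ranged from −0.55 to 1.47 for the change in progressors against nonprogressors in batch 1. In batch 1 nonprogressors Dcstamp ranged from −0.44 to 0.077 and Atp6v0d2 from −0.3 to 0.084, and in batch 2 Ocstamp from −0.43 to 0.39.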

Other observations

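Of the nonprogressor samples, 6 carry a day count since implantation instead of an age. They are not tied to named mice and entered no comparison. Acp5 measured 486 and 789 CPM at 31 days, 1342 and 2142 CPM at 38 days and 858 and 547 CPM at 108 days. Oscar measured 4.61 and 8.85, 20.2 and 43.8, and 11.2 and 7.02 CPM in the same order, and Dcstamp 42.1 and 60.8, 55.7 and 79.6, and 63.0 and 52.1 CPM. The values of 2142 CPM for Acp5 and 43.8 CPM for Oscar were the highest among all 120 samples.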
